A study of Homo sapiens with 11 samples.

Results

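RNA held by J2, an antibody that recognises double-stranded RNA, was compared between HCT116 cells that received an siRNA against Staufen1 together with decitabine (siStau1 DAC) and HCT116 cells that received an siRNA against luciferase and the solvent DMSO (siLuc DMSO). The units are repeat elements, single copies of transposons, retroviruses, satellites, simple repeats and structured RNA sequences in the human genome. An element was included when the siStau1 DAC and siLuc DMSO libraries together had 20 or more reads on it, which held for 622296 of the 5622516 elements listed (11.1%). The labels give 1 J2 library per condition, so every ratio below compares 1 library with 1 library, has no replicate check and carries no test.

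The series holds 11 libraries of HCT116 (a long-established line grown from a human colorectal carcinoma), of which 3 are J2 libraries (siLuc DMSO, siLuc DAC and siStau1 DAC). Decitabine is a nucleoside that lowers DNA methylation, and it was given at 500 nM for 5 days. The control library of the comparison carried the luciferase siRNA and DMSO, and the other library carried the Staufen1 siRNA and decitabine, so the effects of knockdown and of decitabine cannot be told apart in it. The siLuc DAC library, which has decitabine without the knockdown, is given beside both as a further value; it comes from the same tables and serves no test. The sample labels name J2, while the protocol text shared by all libraries names an antibody against Staufen1, and which antibody was used cannot be settled from the labels. The cells are 1 line, and the labels do not say whether the 3 libraries came from separate cultures.

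Long double-stranded RNA forms when complementary transcripts meet, or when a single transcript holds inverted copies of a repeat, such as a pair of Alu elements in opposite orientation in an intron or a 3′ end. Cells read it through sensors such as MDA5, PKR and the OAS enzymes, edit it through ADAR, and bind it through Staufen1, which takes part in RNA transport and decay. DNA methylation keeps many endogenous retroviruses silent, and inhibitors of DNA methylation are known for raising retroviral transcripts and double-stranded RNA in colorectal cancer cells.

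Of the 10 elements with most reads, 8 were copies of structured RNA genes: 7SK, a regulator of transcription elongation, 7SL, the RNA of the signal recognition particle, U3, a guide RNA of ribosomal RNA processing, 28S ribosomal RNA, and U17, another small nucleolar RNA. The others were a HERVH-int and a MER11B element, both retroviral. Human genes of U3 and U17 are shown because they illustrate the kind of molecule that was among those with most reads. They are SNORD3A, a U3 gene (chr17:19188016-19188232, plus strand), and SNORA73A, a U17 gene (chr1:28507366-28507571, plus strand), on GRCh38 (hg38), each a transcript of a non-coding gene in the GENCODE annotation. The elements themselves carry no position, so the genes stand for the RNA and not for a given element. Capitals mark a pair of stretches within each transcript that are perfect reverse complements of each other and as long as any such pair found there, of 8 and 7 bases. SNORD3A holds 1 pair of that length, and SNORA73A holds 3, of which the pair nearest the 5′ end is marked.
SNORD3A: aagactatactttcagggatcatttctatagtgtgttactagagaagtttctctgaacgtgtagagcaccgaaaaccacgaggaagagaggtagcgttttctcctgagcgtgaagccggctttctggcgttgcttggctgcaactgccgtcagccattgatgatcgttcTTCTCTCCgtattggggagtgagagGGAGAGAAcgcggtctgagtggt
SNORA73A: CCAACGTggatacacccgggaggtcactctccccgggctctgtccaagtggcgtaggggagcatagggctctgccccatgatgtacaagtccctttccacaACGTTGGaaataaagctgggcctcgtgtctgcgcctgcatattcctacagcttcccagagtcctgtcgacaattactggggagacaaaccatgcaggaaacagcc
In each transcript these arms lie in different parts of the same molecule. Percent G and C was 49.8% in SNORD3A and 56.3% in SNORA73A.

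Reads on repeat elements numbered 71473124 with siLuc DMSO, 68944777 with siLuc DAC and 83037330 with siStau1 DAC. Reads were seen on 1327614, 1392443 and 1461636 elements. The 10 elements with most reads held 20.9%, 23.2% and 18.5% of the reads. All values below are scaled to these totals, so they are relative to the J2-bound repeat RNA of the same library, and more double-stranded RNA per cell and more cells that hold it cannot be told apart. Under the authors' own scaling factors log2 ratios would be 0.57 higher, and the median of all elements 0.56 higher, since the deposited values add 1 read and not 0.5. Scaled to reads outside Alu elements every ratio would be 0.11 lower, and scaled to reads outside Alu elements and structured RNA repeats 0.35 lower. Scaling to other totals moves all elements alike, so the order of groups stays, but every log2 ratio here between −0.57 and 0.35, the median of all elements included, changes sign under at least 1 of these scalings.

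Across all included elements the siStau1 DAC library was close to the siLuc DMSO library at the middle and spread wider upwards than downwards. The median log2 ratio was 0.04, the quartiles were −0.42 and 0.59, and the 10% and 90% points were −0.90 and 1.28. Elements more than 2-fold higher in siStau1 DAC numbered 90520 (14.5%), and elements more than 2-fold lower numbered 51449 (8.27%). With totals outside Alu elements and structured RNA repeats the order of these counts turned, to 56824 above and 102073 below. The shares of elements past 2-fold differed with depth. Among elements with 20 to 29 reads 25.9% were above and 15.9% below 2-fold, whereas among those with 1000 or more reads the shares were 2.13% and 0.0370%. Elements with exactly 20 reads, just inside the limit, had a median log2 ratio of 0.34, and those with 19 reads, just outside it, had 0.22. Among the 122253 elements with 200 or more reads, 4513 (3.69%) were above and 779 (0.637%) below 2-fold.

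Elements above 2-fold were more frequent among DNA, LTR and LINE elements than among SINE elements. DNA transposons, relics of cut-and-paste elements, had a median log2 ratio of 0.58 (95% interval over elements 0.57 to 0.60, n = 29984), with 33.9% above and 4.02% below 2-fold. LTR elements, the remains of endogenous retroviruses, had a median of 0.45 (0.44 to 0.46, n = 63164), with 27.7% above and 4.85% below. LINE elements, autonomous retrotransposons, had a median of 0.39 (0.39 to 0.40, n = 84090), with 27.3% above and 5.89% below. SINE elements, which are mostly Alu copies, had a median of −0.10 (−0.10 to −0.10, n = 418053), with 8.42% above and 9.68% below. The order-statistic intervals cover the spread over elements of the same 2 libraries and not the spread between cultures. SINE elements made up 67.2% of the included elements, 38.9% of those above and 78.6% of those below 2-fold. DNA elements were 4.82% of all, 11.2% of those above and 2.34% of those below. Under the authors' factors the SINE median was 0.47.

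**Figure D1:**
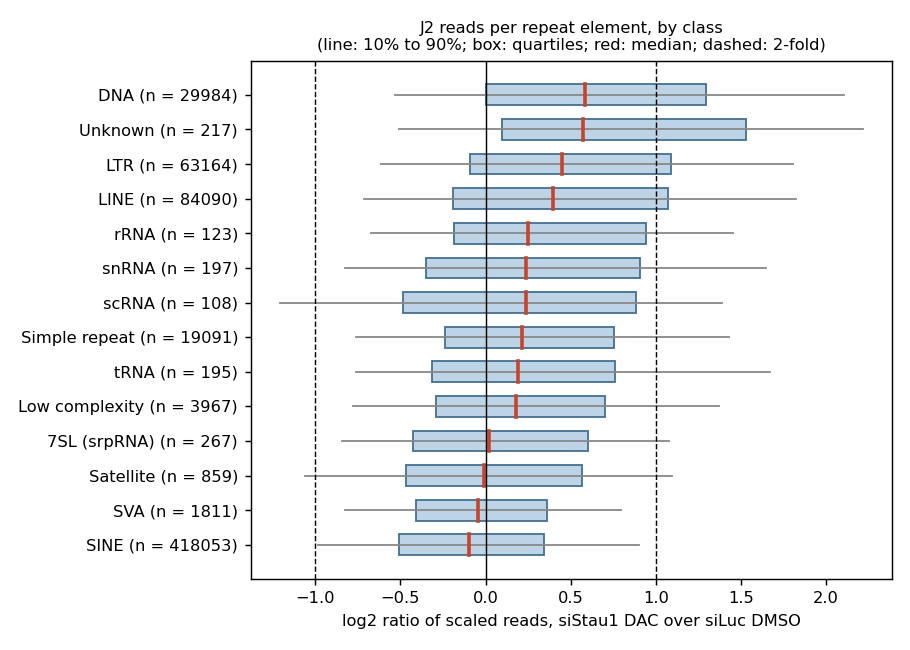
Horizontal axis, log2 ratio of scaled reads per element, siStau1 DAC over siLuc DMSO; 1 row per repeat class with 100 or more elements, with the 10% to 90% range as a line, the quartiles as a box and the median in red. The DNA, LTR and LINE medians lie at 0.58, 0.45 and 0.39, while the SINE median lies at −0.10.

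Because elements entered through their own reads, the class medians were also taken over elements chosen only by 10 or more reads in the siLuc DAC library, which is not one of the pair compared. The medians were then 0.63 for DNA (n = 41356), 0.50 for LTR (n = 63967), 0.47 for LINE (n = 116985) and −0.08 for SINE (n = 377214). The 4 classes kept their order under that choice, and all 4 medians were higher. The siLuc DAC library shares decitabine with siStau1 DAC, so this choice is not free of the comparison and no conclusion is drawn from it. Over elements with 200 or more reads the medians were 0.41 for DNA, 0.32 for LTR, 0.17 for LINE and −0.10 for SINE. At this depth 548 of 2796 DNA elements (19.6%) were above 2-fold and 4 below. For LTR elements the counts were 1043 of 8346 (12.5%) above and 26 below, and for LINE elements 899 of 9251 (9.72%) above and 44 below. Of 96518 SINE elements, 1616 (1.67%) were above and 689 (0.714%) below.

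Shares of reads were compared over whole classes. SINE elements held 61.2% of reads with siLuc DMSO, 51.9% with siLuc DAC and 58.9% with siStau1 DAC. LINE elements held 6.56%, 9.91% and 8.17%, and DNA elements 1.87%, 3.18% and 2.76%. LTR elements held 5.37%, 6.66% and 6.98%, so that LTR was the one of these 4 classes whose share was highest in siStau1 DAC. Simple repeats held 2.87%, 3.77% and 3.42%. The siStau1 DAC share of SINE, LINE, DNA and simple repeats lay between those of the other libraries. At these depths intervals are narrow: the Wilson 95% interval of the LINE share in siStau1 DAC ran from 8.163% to 8.175%. Reads carry no molecular identifiers and even read numbers outnumber odd ones, as where both mates of a pair are counted. Intervals therefore cover counting error only, and the floor used below for 0 reads covers less.

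**Figure D2:**
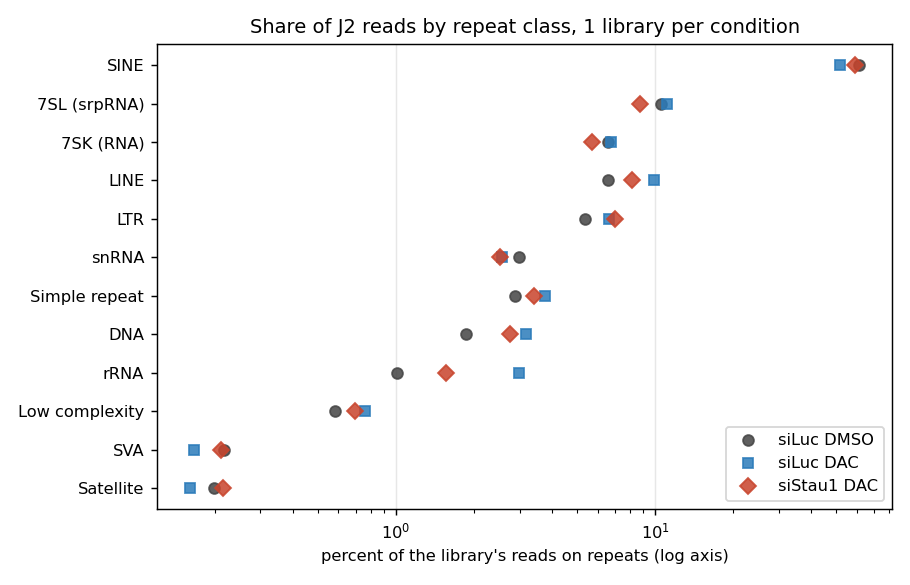
Horizontal axis (logarithmic), percent of each library's reads on repeats; 1 row per repeat class with at least 0.1% of the siLuc DMSO reads, with 1 point for each of the 3 J2 libraries. The LTR point of siStau1 DAC, at 6.98%, is to the right of both others, while its LINE point, at 8.17%, lies between 6.56% and 9.91%.

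Endogenous retroviruses were higher in the siStau1 DAC library in nearly every group. Of the 571 LTR families with 200 or more reads, 554 had more scaled reads in siStau1 DAC. Over all classes 2244 of 2741 families did so (81.9%), and with totals outside Alu elements and structured RNA repeats 1352 would. The 13 LTR lists had medians between 0.21 and 0.73, all above the 0.04 of all elements. Internal portions, which hold the retroviral genes, and the terminal repeats that flank them had medians of 0.51 and 0.40 in ERV1, 0.67 and 0.36 in ERVK, and 0.53 and 0.47 in ERVL. The internal portions were thus higher in these 3 groups, with intervals over elements that overlapped in ERVL. In the ERVL-MaLR group the order was the opposite, with 0.11 for the internal portions (n = 3605) and 0.49 for the terminal repeats (n = 28120).

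LTR12 and HERV9 elements, primate retroviruses whose terminal repeats are known as promoters in many tissues, held 0.279% of reads with siLuc DMSO, 0.212% with siLuc DAC and 0.331% with siStau1 DAC. Their share was highest in siStau1 DAC and lowest in siLuc DAC. Over 1960 elements the median log2 ratio was 0.22, with 14.2% above 2-fold, a share near the 14.5% of all elements. The family with most reads, LTR12C, had 129192, 86369 and 170480 reads in the 3 libraries in that order and a log2 ratio of 0.18. The internal family HERV9-int had 8942, 9660 and 14921 reads and a log2 ratio of 0.52, the highest of the 10 families in the list.

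LTR7 and HERVH elements, a retrovirus family known for transcription in pluripotent and colon cancer cells, held 0.203% of siLuc DMSO reads, 0.166% of siLuc DAC reads and 0.270% of siStau1 DAC reads. Again siStau1 DAC was highest and siLuc DAC lowest. Of the list's siLuc DMSO reads, 61.02% lay on a single HERVH-int element, with 88590, 49858 and 136973 reads in the 3 libraries. Its log2 ratio was 0.41 (95% interval 0.40 to 0.43, counting error only), the same to 2 decimals as that of the list's summed reads, and without this element HERVH-int had 0.40. The median over the 645 elements was 0.34.

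MER41, an ERV1 family, had a median of 0.49 over 791 elements, with 29.8% above 2-fold. Its share of reads was 0.0510% with siLuc DMSO, 0.0712% with siLuc DAC and 0.0679% with siStau1 DAC, so both decitabine libraries were above the control. MER41E was highest with a log2 ratio of 0.99, and MER41G lowest with −0.24. MER4, another ERV1 group, had the highest median of the 13 LTR lists, 0.73 over 782 elements, with MER4D at 0.93. Over elements with 200 or more reads it had 0.409, below MER21 (0.71), MER11 (0.44), MER41 (0.43) and MLT1 (0.414).

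The lists of younger retroviruses of the ERVK group differed from each other. LTR5 and HERVK, the most recently active human retrovirus, had a median of 0.33 over 394 elements and shares of reads of 0.0458%, 0.0586% and 0.0572% in siLuc DMSO, siLuc DAC and siStau1 DAC. The terminal repeat LTR5_Hs had 17699, 21156 and 25560 reads and a log2 ratio of 0.31. MER11 had a median of 0.65 over 406 elements, while its summed reads gave −0.08. The opposite signs came with 1 MER11B element, which held 80.5% of the list's siLuc DMSO reads and had 74167, 69682 and 71023 reads in the 3 libraries. Without that element MER11B had a log2 ratio of 0.54.

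The older ERVL and MaLR groups held most LTR elements. MLT1, the oldest MaLR group, had a median of 0.53 over 20783 elements, and all 56 of its families with 200 or more reads were higher in siStau1 DAC. Its share of reads was 1.36%, 1.92% and 1.93% in siLuc DMSO, siLuc DAC and siStau1 DAC, so both decitabine libraries were above the control. MST had 0.38 over 4568 elements, and THE1, the youngest MaLR group, had 0.21 over 6352 elements. With 200 or more reads MST had 0.21 and THE1 0.10. In THE1 the internal family THE1-int was lower in siStau1 DAC, with 3601, 2138 and 3746 reads and a log2 ratio of −0.16 (−0.07 without its leading element), while the terminal repeat THE1A had 0.36. MER21 had 0.70 over 1807 elements, MLT2 and HERVL 0.47 over 2496, LTR16 and LTR33 0.31 over 3514, and Gypsy-like elements 0.55 over 1192.

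LINE-1 elements differed along the series of subfamilies from young to old. The youngest, L1HS to L1PA8, were slightly lower in siStau1 DAC, with a median of −0.13 (−0.14 to −0.11, n = 11684), 8.50% above and 13.5% below 2-fold. None of their 9 subfamilies had more scaled reads in siStau1 DAC. L1HS, the only human LINE-1 that still moves, had 22209 reads with siLuc DMSO, 19253 with siLuc DAC and 23392 with siStau1 DAC, and a log2 ratio of −0.14 (−0.18 to −0.10), which was −0.08 without its leading element. The subfamilies ran from −0.16 for L1PA8 to −0.09 for L1PA5. Under the authors' factors all of them would be above 0.

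Medians were higher in older groups, 0.05 for L1PA10 to L1PA17 (n = 3251), 0.26 for L1PB (n = 1465) and 0.34 for L1MA (n = 2572). The mammalian groups L1MB (0.73, n = 4033), L1MC (0.76, n = 4434), L1MD (0.57, n = 1361) and L1ME (0.74, n = 6806) had values close to each other. All 12 L1MA, 7 L1MB, 11 L1MC, 6 L1MD and 27 L1ME subfamilies were higher in siStau1 DAC. Shares of reads for L1ME were 0.349%, 0.904% and 0.573% in siLuc DMSO, siLuc DAC and siStau1 DAC. For L1HS to L1PA8 they were 1.71%, 1.71% and 1.57%. The old groups were thus highest in siLuc DAC and the young group was lowest in siStau1 DAC. With 200 or more reads L1PA10 to L1PA17 turned to −0.05, and the medians were lower in all the older groups: 0.12 for L1PB, 0.16 for L1MA, 0.50 for L1MB, 0.44 for L1MC, 0.36 for L1MD and 0.61 for L1ME. L1HS to L1PA8 had −0.12.

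The other LINE families are older still and long immobile in humans. L2 had a median of 0.45 over 36224 elements, CR1 0.53 over 4382 and RTE 0.76 over 1281. All 13 L2, 16 CR1 and 5 RTE subfamilies with 200 or more reads were higher in siStau1 DAC. L2a, which has most reads of its list, had 438480, 703164 and 700150 reads in siLuc DMSO, siLuc DAC and siStau1 DAC and a log2 ratio of 0.46.

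**Figure D3:**
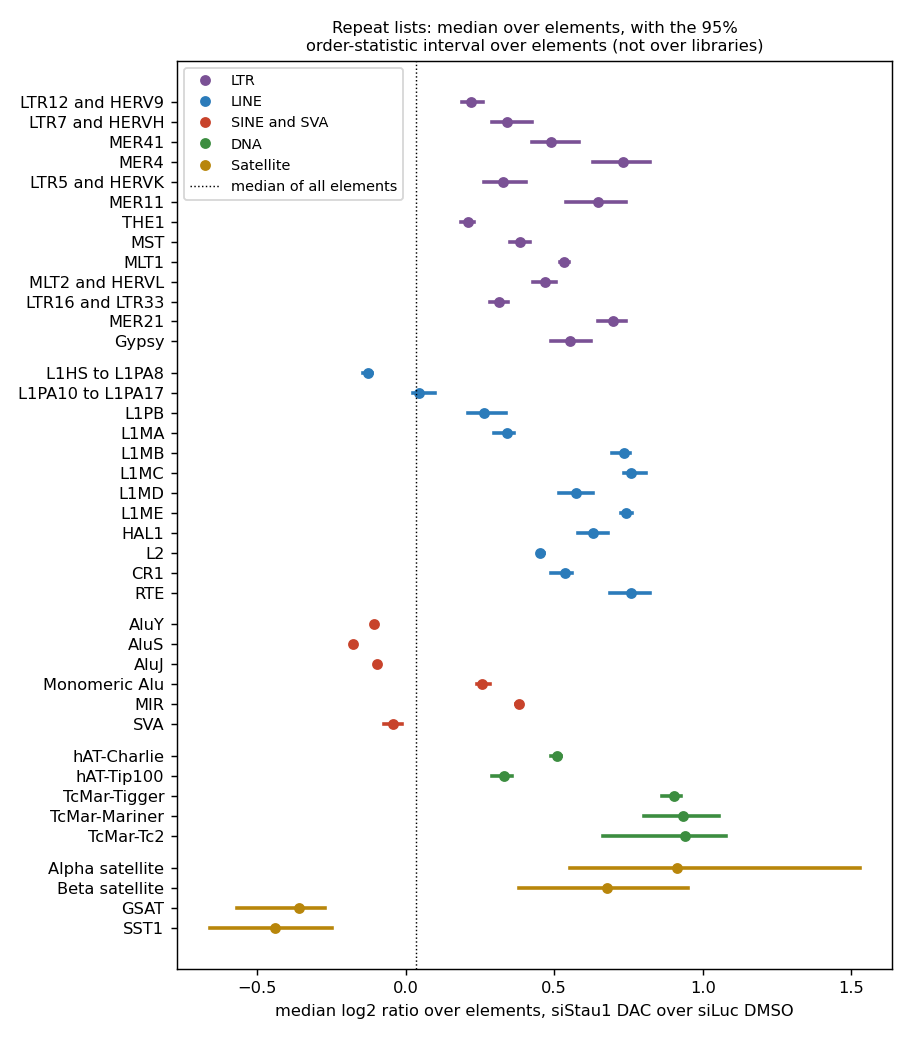
Horizontal axis, median log2 ratio over the elements of each list, siStau1 DAC over siLuc DMSO, with the 95% order-statistic interval over elements as a bar; colours mark the class and the dotted line the median of all elements, 0.04. LINE-1 medians run from −0.13 for L1HS to L1PA8 to 0.76 for L1MC, and the 3 dimeric Alu groups lie between −0.18 and −0.10.

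Alu elements, the primate SINE that makes up most inverted repeat pairs in human RNA, were the largest body of J2 reads and were slightly lower in siStau1 DAC. AluS held 39.5% of reads with siLuc DMSO, 31.3% with siLuc DAC and 36.6% with siStau1 DAC, so siStau1 DAC lay between the others. Its median log2 ratio was −0.18 over 236012 elements, and none of its 17 subfamilies had more scaled reads in siStau1 DAC. AluJ, the oldest group, had −0.10 over 84171 elements with 0 of 4 subfamilies higher, and AluY, the youngest, had −0.11 over 38298 elements with 10 of 25 higher. With 200 or more reads AluY had −0.06. The youngest mobile subfamilies AluYa5 and AluYb8 had log2 ratios of 0.03 each, with 24268, 21482 and 28712 reads for AluYa5. AluSx had 4764816, 3639984 and 5119800 reads and a log2 ratio of −0.11.

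SINE elements other than dimeric Alu went with the LINE and LTR elements. The monomeric forms FLAM, FRAM and FAM, which resemble the single arms of Alu, had a median of 0.26 over 6534 elements, and all 4 were higher, from 0.01 for FAM to 0.34 for FLAM_A. MIR, an ancient mammalian SINE, had a median of 0.38 over 52043 elements and shares of 3.68%, 4.93% and 4.81% of reads in siLuc DMSO, siLuc DAC and siStau1 DAC. The 5 MIR subfamilies were between 0.20 and 0.45. SVA elements, composite hominid retroposons with an Alu-like part, had a median of −0.04 over 1811 elements and shares of 0.216%, 0.167% and 0.211%. SVA_F, a young subfamily, had 22930, 14075 and 27515 reads and a log2 ratio of 0.05, and SVA_B had −0.10.

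DNA transposons had the highest class median of the large classes. Of 277 families with 200 or more reads 276 were higher in siStau1 DAC. Among the Tc1-mariner groups Tigger had 0.90 over 6329 elements, Mariner 0.93 over 507 and Tc2 0.94 over 179. The hAT groups Charlie and Tip100 were lower, with 0.51 over 17741 and 0.33 over 2715 elements, while the small group hAT-Tag1 had 1.13 over 90. Tigger elements held 0.332%, 0.779% and 0.577% of reads in siLuc DMSO, siLuc DAC and siStau1 DAC, so the decitabine libraries were both above the control and siLuc DAC was highest. Tigger1 had 42131, 107833 and 92836 reads and a log2 ratio of 0.92. MER1B, a short Charlie relative, was the lowest hAT-Charlie family, with 90654, 89979 and 118089 reads and 0.17. With 200 or more reads, 164 of 483 Tigger elements were above 2-fold and 2 below.

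Among families with 1000 or more reads in which no single element held 50% of the reads or more, the 10 highest were 8 DNA transposon families, the small nucleolar RNA U14 and LTR47A2. DNA1_Mam, a Tc1-mariner family, was first, with 194 reads with siLuc DMSO, 342 with siLuc DAC and 831 with siStau1 DAC and a log2 ratio of 1.88 (1.56 to 2.22) from 4 elements. The family hAT-5_Mam followed with 511, 3250 and 1770 reads and 1.57, and MARE4 with 243, 898 and 759 reads and 1.42. MER47B had 1118, 2719 and 3427 reads and 1.40, Tigger14a had 1.31, Tigger2b_Pri 1.26, Kanga1b 1.26 and X6b_DNA 1.24. U14, which guides ribosomal RNA processing, had 263, 724 and 802 reads and 1.39. LTR47A2 had 338, 622 and 925 reads and 1.23. Scaled to totals, siStau1 DAC was the highest of the 3 libraries in DNA1_Mam, MER47B and LTR47A2, and siLuc DAC was highest in the others.

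The 10 lowest families by the same rule were 5 simple repeats, 3 centromeric satellites, a tRNA and an Alu. The simple repeat (CGT)n had 25036, 8685 and 17750 reads in siLuc DMSO, siLuc DAC and siStau1 DAC and a log2 ratio of −0.71 (−0.75 to −0.67). SST1, a tandem repeat known for losing DNA methylation in colorectal cancer, had 6098, 1533 and 4644 reads and −0.61. GSATII, a gamma satellite, had 6208, 731 and 5217 reads and −0.47, and GSAT had 16295, 644 and 15717 reads and −0.27. In these satellites siLuc DAC was the lowest of the 3 libraries, and siStau1 DAC lay between it and siLuc DMSO. The other families were tRNA-Glu-GAA (−0.42), (GCCTCA)n (−0.29), (CGCCC)n (−0.27), (GCCCG)n (−0.27), (TGCCCC)n (−0.26) and AluYi6 (−0.25). Without its leading element (CGCCC)n had −0.05, (GCCCG)n −0.08, (TGCCCC)n −0.17 and AluYi6 −0.16. Under the authors' factors (CGT)n and SST1 were the only families of these 10 that would stay below 0.

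Families led by 1 element, 481 of the 1687 with 1000 or more reads, were kept apart, 411 of them simple repeats. Among the rest, HERV-Fc2-int, the internal part of a low-copy retrovirus, had 7133 reads with siLuc DMSO, 2 with siLuc DAC and 6048 with siStau1 DAC, and a log2 ratio of −0.45. The related HERV-Fc1-int had 4572, 399 and 5811 reads and 0.13, and ACRO1, a satellite of acrocentric chromosomes, had 3937, 625 and 3307 reads and −0.47. In these families siLuc DAC was far below both other libraries. X32_DNA had 573, 3383 and 2771 reads and 2.06, UCON73 had 2427, 3862 and 7066 reads and 1.33, and Charlie9 had 911, 3021 and 2657 reads and 1.33. Without the leading element the ratios were −0.06 for HERV-Fc2-int, −0.35 for HERV-Fc1-int, which turned, −0.37 for ACRO1, 1.14 for X32_DNA, 0.68 for UCON73 and 0.86 for Charlie9.

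Satellites, tandem repeats of centromeres and other heterochromatin, were split. Alpha satellite, the DNA of centromeres, had 2223, 3356 and 4629 reads in siLuc DMSO, siLuc DAC and siStau1 DAC and a median log2 ratio of 0.91 over 64 elements. Only 2 of these elements had 200 or more reads, with a median of 0.44. Beta satellite had 5014, 8106 and 8885 reads and 0.68 over 51 elements. The gamma satellite group had −0.36 over 79 elements, and SST1 −0.44 over 73. Both of the higher groups had more reads in the 2 decitabine libraries than in the control. No listed element matched HSATII, so it has no value here.

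Simple repeats differed with the base composition of the repeated unit, with higher medians where G and C were few. Units of A and T only had a median of 0.62 over 1677 elements, with 36.4% above 2-fold, and shares of 0.124%, 0.272% and 0.184% of reads in siLuc DMSO, siLuc DAC and siStau1 DAC. Units holding the dinucleotide CG had 0.07 over 2824 elements, with 7.93% above, and 0.14 over those with 200 or more reads. Units that are purine on 1 strand had 0.25 over 3597 elements, and the remaining units 0.20 over 10993. By percent G and C of the unit, medians were 0.62 at 0%, 0.67 and 0.73 up to 25% and 40%, 0.29 up to 50%, 0.13 up to 75%, −0.03 below 100% and 0.08 at 100%.

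Single units followed this only in part. Among units of G and C only, (CCG)n had 0.17 and (GGC)n 0.16, above (GCT)n at 0.10 and (GCA)n at 0.14. The unit (GGC)n is (GCC)n read on the other strand. Of the 23 units with 100 or more elements, (GCC)n was lowest with −0.07 and (A)n highest with 0.65. The dinucleotides (CA)n and (TG)n, the most common microsatellites, had 0.28 over 654 and 0.25 over 719 elements. The same repeats in another phase, (AC)n and (GT)n, had 0.38 over 630 and 0.31 over 661. The 4 units without G or C, (A)n, (T)n, (AT)n and (TA)n, were all above the other 19. Low-complexity tracts were similar, with 0.73 for A-rich (n = 616), 0.27 for GA-rich (n = 1558) and −0.00 for G-rich tracts (n = 1793). A-rich tracts had 32938, 78247 and 62026 reads in siLuc DMSO, siLuc DAC and siStau1 DAC. G-rich tracts had 205782, 216001 and 257178.

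**Figure D4:**
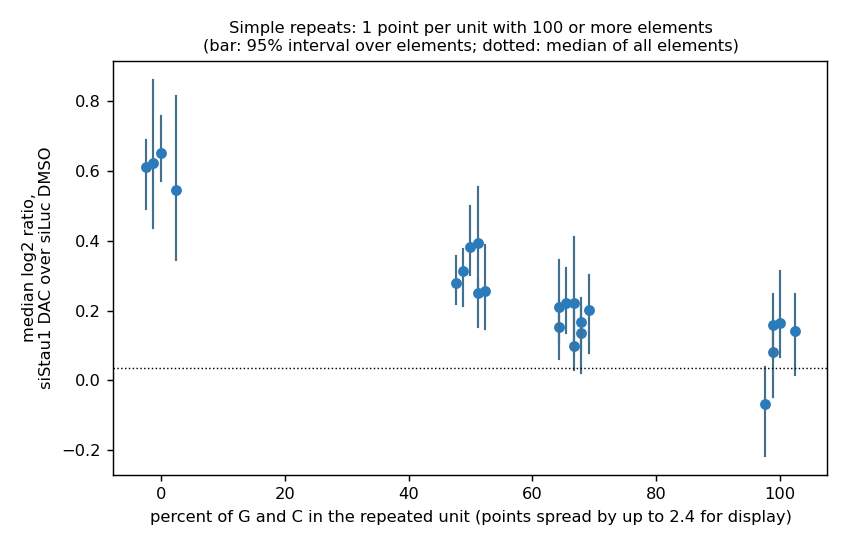
Horizontal axis, percent G and C of the repeated unit; vertical axis, median log2 ratio of siStau1 DAC over siLuc DMSO for each of the 23 units with 100 or more elements, with its 95% interval over elements. Units with neither G nor C lie between 0.54 and 0.65, and units of G and C only lie between −0.07 and 0.17.

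The 7SK, 7SL, U3 and U17 elements with most reads were lower in siStau1 DAC. The leading 7SK element had 4511504 reads with siLuc DMSO, 4505363 with siLuc DAC and 4568774 with siStau1 DAC, a log2 ratio of −0.20. The leading 7SL element had 3889072, 3941953 and 3738825 reads and −0.27, and 2 further 7SL elements had −0.22 and −0.43. The leading U3 element had 1791581, 1528971 and 1800420 reads and −0.21. The pair of U17 elements had 142699, 94602 and 123425 reads, and 140144, 94406 and 121573 reads, with −0.43 and −0.42. U3 and U17 are the RNAs whose gene sequences are given above. Under the authors' factors each of these ratios would be above 0. Over all copies of 7SK and 7SL the medians were above 0, with intervals over elements that included 0. The 7SK copies had 0.49 (−0.06 to 0.99, n = 76), with 36.8% above and 5.26% below 2-fold. The 7SL copies had 0.02 (−0.10 to 0.15, n = 267). The 15 copies of 7SK with 200 or more reads had a median of −0.21.

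The leading ribosomal RNA element was higher. This 28S element (LSU-rRNA_Hsa) had 710025 reads with siLuc DMSO, 2054057 with siLuc DAC and 1287082 with siStau1 DAC, a log2 ratio of 0.64. Without it that family had 0.15. Scaled to totals, both decitabine libraries were above the control and siLuc DAC was highest. The labels describe a depletion of ribosomal RNA for the total RNA libraries, and the part of such steps in this value was not tested. Of the 12 small nuclear RNA families with 200 or more reads 8 were higher, from U4 at −0.52 to U14 at 1.39. Copies of Y RNA had a median of 0.34 over 46 elements, 5S copies 0.34 over 67 and tRNA copies 0.19 over 195.

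The 10 highest single elements were chosen by the ratio of siStau1 DAC over siLuc DMSO. Few reads in siLuc DMSO and many in siStau1 DAC therefore follow from the choice. The siLuc DAC library, with 46 to 307 reads on them, is set against the same low control. An LTR24C element, an ERV1 terminal repeat, had 8 reads with siLuc DMSO, 138 with siLuc DAC and 340 with siStau1 DAC, a log2 ratio of 5.11 (3.81 to 7.09). An L2a element had 7, 136 and 230 reads and 4.73, and an L1MC5 element had 9, 46 and 243 reads and 4.46. An L1ME4b element had 41, 307 and 921 reads and 4.26, the deepest of the 10. The other 6 were OldhAT1 (3.90), a second L2a (3.77), Tigger1 (3.60), Tigger16b (3.49), MIRc (3.46) and a second L1ME4b (3.46). Scaled to totals, siStau1 DAC was highest in 9 of the 10; OldhAT1 had 12, 201 and 217 reads and was higher with siLuc DAC.

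The 10 lowest elements were 5 Alu copies, 2 SST1 copies, a (TGGAA)n simple repeat, a (GAATG)n satellite and an L1PA4. The (TGGAA)n element had 364 reads with siLuc DMSO, 6 with siLuc DAC and 64 with siStau1 DAC, a log2 ratio of −2.71 (−3.31 to −2.18). The (GAATG)n element had 603, 2 and 194 reads and −1.85. These units are known from human satellite arrays of pericentromeric heterochromatin. The SST1 elements had 243, 0 and 89 reads and 154, 0 and 57 reads, and the L1PA4 element 189, 4 and 70 reads. In these 5 elements siStau1 DAC lay between siLuc DMSO and siLuc DAC, as it did in an AluSx element with 168, 36 and 62 reads. In the other Alu elements siStau1 DAC was lowest. An AluSq2 element had 178, 241 and 66 reads and −1.64, with siLuc DAC highest.

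**Figure D5:**
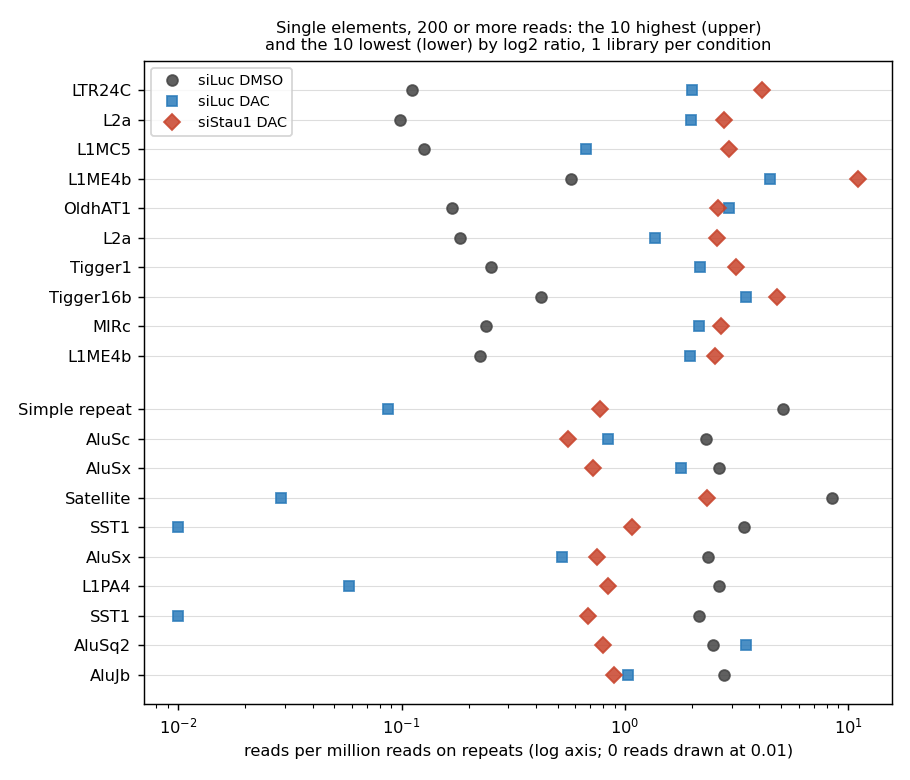
Horizontal axis (logarithmic), reads scaled to the library total (RPM on repeats); 1 row per element for the 10 highest and 10 lowest log2 ratios of siStau1 DAC over siLuc DMSO among elements with 200 or more reads, with 1 point per J2 library and 0 reads drawn at 0.01. In the upper 10 both decitabine libraries are to the right of siLuc DMSO. In the lower 10 the satellite, SST1, simple repeat and L1PA4 rows and 1 AluSx row have siLuc DAC farthest to the left.

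Over the 4513 deep elements above 2-fold the median log2 ratio of siStau1 DAC over siLuc DMSO was 1.28, and that of siLuc DAC over siLuc DMSO for the same elements was 1.25. Over the 779 below 2-fold these medians were −1.11 and −1.12. Over all 122253 deep elements they were −0.04 and −0.25. Both ratios share the siLuc DMSO library, and the first of them chose the elements.

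Some elements had reads in 1 library of the pair only. Of the included elements, 2289 had no read in siLuc DMSO and at least 20 in siStau1 DAC, and 285 had none in siStau1 DAC and at least 20 in siLuc DMSO. Those without siLuc DMSO reads were LINE in 727 cases, SINE in 623, LTR in 486 and DNA in 349. SINE thus made up 27.2% of them and LINE 31.8%, against 67.2% and 13.5% of all included elements. Those without siStau1 DAC reads were SINE in 210 cases, 73.7%, and had at most 46 reads. The shares of 67.2% and 13.5% cover all depths and are not matched to such elements. At 20 to 29 reads 70700 of 123010 included elements were SINE and 22876 were LINE. Both sets also passed the limit of 20 reads only through the library where they are high. The siLuc DAC library had reads on 2077 of the 2289 (90.7%), with a median of 12, and on 213 of the 285 (74.7%), with a median of 4. Of all 622296 included elements 30043 had no siLuc DAC read, so most elements had reads in that library whatever their ratio. A MIR3 element had 0, 190 and 183 reads in siLuc DMSO, siLuc DAC and siStau1 DAC. It was 52.5-fold higher in siStau1 DAC with a floor of 3 reads put in place of 0. This floor counts single reads, whereas the intervals take each pair of reads as 1 draw, so these folds are not lower bounds. An L1ME2 element had 0, 51 and 111 reads (31.8-fold higher by the same floor) and an MLT1I element 0, 56 and 95 reads (27.3-fold). A MER11B element had 0, 0 and 70 reads, 20.1-fold higher by that floor, and was the only one of the 5 highest without siLuc DAC reads. On the other side an L1PA7 element had 46, 4 and 0 reads, 17.8-fold lower by that floor.

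Total RNA of the same conditions, in 2 libraries each, was available as 1 FPKM value per group in the authors' deposited table. Of 16909 genes tested there, 679 (4.02%) were called higher and 163 (0.964%) lower in siStau1 DAC at a q-value under 0.05. STAU1 (ENSG00000124214.19), the targeted gene, had 35.5 FPKM in siLuc DMSO and 27.1 FPKM in siStau1 DAC and was not called in the authors' deposited table, with a q-value of 0.590. Of the 20 genes of the double-stranded RNA reader list 19 were tested there, and none of these was called in either direction. In the authors' deposited table IFIH1, which encodes MDA5, had 27.2 and 29.1 FPKM, EIF2AK2, which encodes PKR, 75.3 and 56.3, ADAR 120.9 and 120.3, and DHX9, a helicase that unwinds Alu pairs, 145 and 101. OAS2 had 1.61 and 10.7 FPKM with a q-value of 0.135 there, whereas OAS1 had 96.1 and 64.0 and OAS3 54.3 and 68.3. STAU2 had 27.9 and 16.7 FPKM there, the lowest log2 fold change of the list (−0.74). Of the 20 genes 10 were higher and 10 lower in siStau1 DAC.

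Of 5 structured RNA genes 4 were tested, and none of these was called either. RN7SL1, a 7SL gene, was marked LOWDATA in the authors' deposited table, with 0 FPKM in both groups, and was not tested. In the authors' deposited table RN7SK had 80919 FPKM in siLuc DMSO and 202720 in siStau1 DAC (q-value 0.484), and SNORD3A 207319 and 291331 (q-value 0.853). Their J2 ratios above were below 0 under scaling to totals, and the FPKM values lie on another scale. Of the 8 colon epithelium markers, EPCAM, CDH1, KRT8, KRT18, KRT19 and CDX2 were between 7.31 and 2415 FPKM, and VIL1 and CDX1 were under 1 FPKM in both groups. KRT19, a keratin, was called in the authors' deposited table, with 536.8 and 1041 FPKM, as was CDX1, listed at 0 in siLuc DMSO and at 0.791 in siStau1 DAC. The 8 markers of blood, endothelial and fibroblast cells summed to 1.76 FPKM with siLuc DMSO and 9.97 with siStau1 DAC, with COL1A1 highest at 5.65 and PTPRC, CD3E, PECAM1, COL1A2 and DCN listed at 0 in siLuc DMSO. All 8 were higher in siStau1 DAC, PTPRC and PECAM1 were called in the authors' deposited table, and the part of such cells in the J2 ratios was not tested.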

How the data were processed

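Several kinds of values were used. For J2 RNA the authors deposited tables with 1 value per library and repeat element. In the deposited tables siLuc DMSO is given as counts (reads with 1 added to each). The siLuc DAC and siStau1 DAC columns are a deposited signal, reads with 1 added and then scaled by a library factor (1.92 and 1.27) whose origin is not given in the sources used here. Each column was divided by its minimum and 1 was subtracted, which gave whole reads for 100% of values (tolerance 1e-06). The deposited score per element is a logarithm to base 1.5 of the ratio of the columns and differed from the recomputed one by at most 4.6e-14. Element names hold a class, a family and numbers whose meaning is not given in the sources used here, with no positions. For total RNA the authors deposited FPKM per group, a log2 fold change and a q-value (an adjusted p-value), and only the rows of siLuc DMSO against siStau1 DAC were read, in the layout of Cuffdiff per the file headers. The submitters' processing notes name hg38, HISAT2 2.1.0, featureCounts, DESeq 1.36.0, Cuffdiff 2.2.1, Cuffnorm 2.2.1 and bcl2fastq 2.20, without roles. How reads that match several copies were counted is not given in the sources used here, so near-identical copies are uncertain.

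The log2 ratio is that of reads plus 0.5 over each library's total on repeats, siStau1 DAC over siLuc DMSO. Elements needed 20 or more reads over both libraries, families 200. With 1 library per condition no count model was fitted and no test was made; a ratio beyond 2-fold is a description. Medians have 95% order-statistic intervals over elements. Shares have Wilson 95% intervals with each single read as 1 draw. Elements and families have Clopper-Pearson 95% intervals with each pair of reads as 1 draw. Families named singly were the 10 highest and 10 lowest with 1000 or more reads and no element at 50% of reads, and elements the 10 highest and 10 lowest with 200 or more reads and the 10 with most reads. In a list, families with most reads and the highest and lowest were named. HERV-Fc1-int, THE1A, MER1B, AluYa5, AluYb8 and other names outside that rule were chosen after their values were seen. The repeat groups, gene lists and the comparison were chosen with earlier results of these data known. No value column was left unmapped (0). The labels give no batch or date. The scripts, in Python 3.11.15 with numpy 2.4.6, pandas 2.3.3 and scipy 1.17.1, were tested on simulated data. Sequences were read from GENCODE transcripts on GRCh38.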

Additional observations from a re-analysis of the deposited data

How the results depend on the processing

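No paired analysis was possible because each J2 condition has 1 library, and the total RNA table gives no value per library although its labels number the libraries. Leaving out a library was likewise not done, since none has a replicate.

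The median log2 ratio of all elements (0.04) was −0.078 with totals outside Alu elements, −0.32 with totals outside Alu elements and structured RNA repeats, −0.028 over elements with 100 or more reads, −0.0080 with totals without the 10 elements with most reads (chosen after seeing the data), 0.0060 with 5 reads added, 0.073 over elements chosen by siLuc DAC reads and 0.59 under the authors' factors. In the same order the LTR median (0.45) was 0.34, 0.10, 0.35, 0.41, 0.37, 0.50 and 1.01. The LINE median (0.39) was 0.28, 0.040, 0.23, 0.35, 0.30, 0.47 and 0.95. The SINE median (−0.10) was −0.21, −0.45, −0.10, −0.14, −0.11, −0.080 and 0.47. Other totals shift every element alike, and the authors' deposited values also add 1 read; for the other alternatives the cause was not tested.

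Elements above 2-fold numbered 185983 under the authors' factors, 56824 with totals outside Alu elements and structured RNA repeats and 12289 among those with 100 or more reads, where fewer elements were counted. Elements below 2-fold numbered 16451, 102073 and 4267, so the second of these scalings turned which count was larger. With totals outside Alu elements the counts were 78449 above and 63644 below, against 90520 and 51449, which narrows the split. The LTR share in siStau1 DAC minus that in siLuc DMSO, 1.61 percentage points, was 2.54 over reads outside Alu elements and 0.42 with structured RNA repeats left out too. Families higher in siStau1 DAC (2244) numbered 1352 with totals outside Alu elements and structured RNA repeats (added after seeing the data) and between 1985 and 2722 under the other alternatives.

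Lists were set against the median of all elements. Of the 47 with enough elements of 100 or more reads, 3 turned: L1PA10 to L1PA17 (−0.00065), 7SK (−0.15) and 7SL (0.067). None turned of the 53 that could be compared over elements chosen by siLuc DAC reads, or of the 54 under the other alternatives. With 1 library per condition, differences between cultures, the knockdown and decitabine cannot be told apart, and at 20 to 29 reads counting error alone is wide.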
